A study of Mus musculus with 20 samples.

Results

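The 9 genes described here encode transcription factors that set and keep the identity of the hepatocyte, the main cell of the liver: Hnf4a, Foxa1, Foxa2, Foxa3, Cebpa, Cebpb, Onecut1, Onecut2 and Prox1. They were picked by symbol from the 50559 genes of the count tables, and all 9 were among the 14333 genes with enough reads to be tested. Bulk RNA from 20 mice was sequenced, 5 livers and 5 tumors of each of 3 kinds. All mice were wild type C57BL/6J, and the study's methods describe young adult females injected by hydrodynamic gene transfer, in which a large volume of plasmid solution given into the tail vein reaches hepatocytes. Every tumor carried MYC, expressed from the EF1a promoter of the pT3 transposon plasmid. The Aldafermin+MYC and FGF19+MYC tumors also received a transposon for Aldafermin, an engineered analog of the human hormone FGF19, or for FGF19 itself, with the SB100 Sleeping Beauty transposase, and the sgTrp53+MYC tumors received the LentiCRISPRv2 plasmid with a guide against Trp53, the gene of the p53 tumor suppressor. The labels name the livers as non treated, whereas the study describes control mice given an RFP plasmid. The treatment label of the sgTrp53+MYC tumors reads None, so their group was taken from the titles. The tumors grew from transfected hepatocytes among untouched ones, so that a sample may hold several clones and some surrounding liver.

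Hepatocyte identity rests on a small set of factors that bind together at liver enhancers and regulate one another. FOXA proteins, the forkhead pioneer factors, open chromatin in the early endoderm, HNF4A then drives most genes of the mature hepatocyte, and C/EBP and ONECUT factors and PROX1 add metabolic, developmental and lineage control. In liver cancer, loss of some of these factors is a known mark of dedifferentiation.

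Expression is given as CPM, the count of a gene relative to the size of its library, after scaling with TMM factors. TMM sets the scale of each library on the assumption that most genes do not change. With this scaling, 69.7% to 70.3% of the tested genes still changed against liver by the test given below. Libraries held 18004977 to 66354724 reads on genes. The scaling bears on every comparison with liver, because the 20 most abundant genes took 25.6% to 28.6% of the liver reads and 9.24% to 13.2% of the tumor reads. Without TMM, with library size as the only scaling, the median gene was higher in tumors than in liver by a log2 fold change of 0.97, 0.91 and 0.95 for Aldafermin+MYC, FGF19+MYC and sgTrp53+MYC tumors, against 0.13, 0.06 and 0.07 with TMM, shifts of 0.84, 0.85 and 0.88. A change under both scalings is given for each factor below. The counts of the sgTrp53+MYC tumors came in a separate table, and 5.87% ± 0.575 (SD, n = 5) of their reads did not align, against group means of 20.6% to 26.4% for the others. What sets the tables apart and what sets these tumors apart cannot be told apart. Trp53 itself ranged from 18.7 to 79.8 CPM in sgTrp53+MYC tumors, below the lowest of the other tumors at 90.7 CPM, and from 28.8 to 36.3 CPM in livers.

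The defining hepatocyte markers were abundant in liver and much lower in tumors: the summed level of 7 markers was 177600 to 230600 CPM in livers, and 4051 to 28380 CPM in the 15 tumors, with no marker at 0 in any group. In bulk RNA, fewer hepatocytes and less RNA per hepatocyte cannot be told apart. This holds for every lower level in tumors reported here.

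Most of the 9 factors were lower in tumors. By edgeR's quasi-likelihood test with Benjamini-Hochberg adjustment over all 14333 genes, at an adjusted p threshold of 0.05, 7 factors fell in Aldafermin+MYC tumors, where 31.9% of all genes fell, 38.4% rose and 70.3% changed either way. Against the same livers 6 fell in FGF19+MYC tumors, where 32.9% of all genes fell, 36.9% rose and 69.7% changed. The sgTrp53+MYC tumors had 7 lower factors, where 33% of all genes fell, 36.9% rose and 69.9% changed. No factor rose in any of the 3 comparisons. The median log2 fold change of the 9 was -1.27, -1.32 and -1.28, beside 0.13, 0.06 and 0.07 over all genes. With library size as the only scaling, 3, 4 and 3 factors were lower in Aldafermin+MYC, FGF19+MYC and sgTrp53+MYC tumors, where 16.8%, 17.1% and 16.9% of all genes were lower, and 0, 2 and 2 were higher, where 60.1%, 58.4% and 59.5% of all genes were higher. The 3 comparisons share the same 5 livers.

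**Figure D1:**
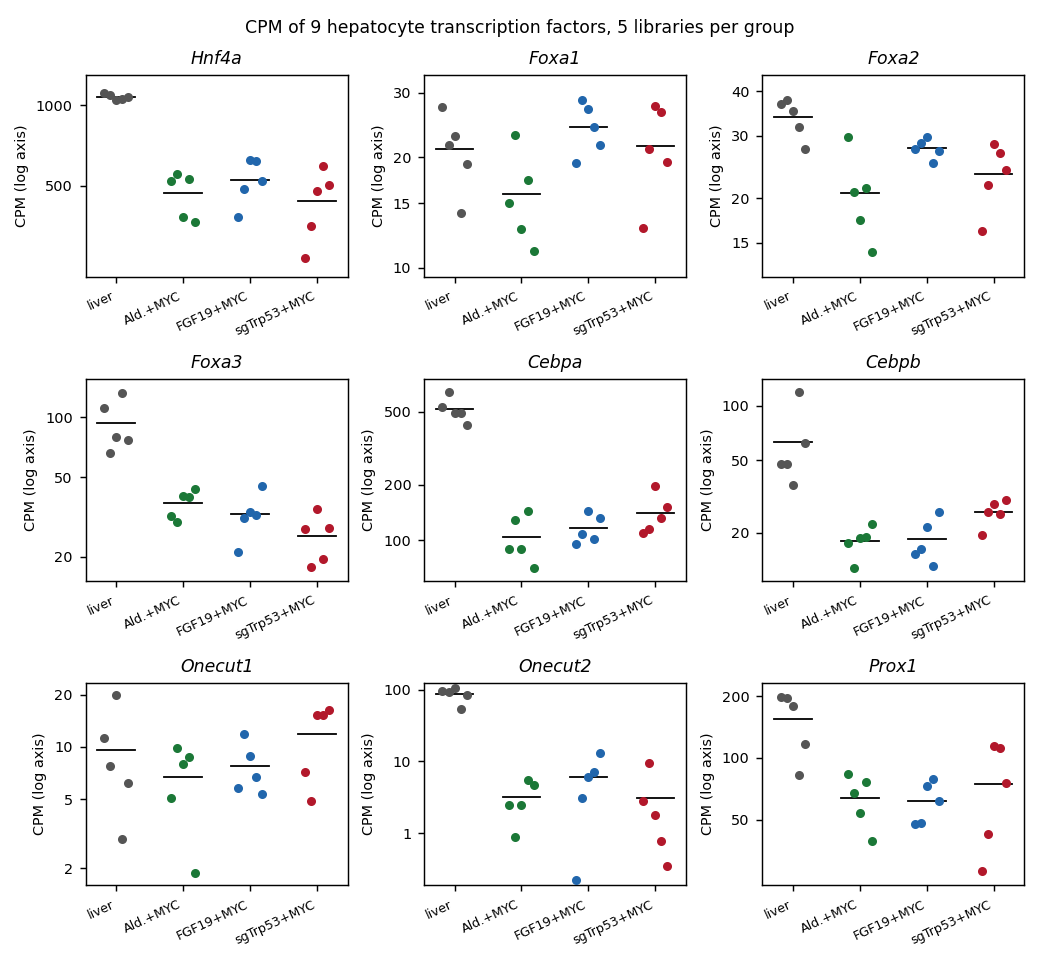
CPM (TMM scaled, log axis) of the 9 factors in each of the 20 libraries, with 1 panel per gene and 1 point per library. Horizontal lines are group means (n = 5). All 15 tumors lie below all 5 livers for Hnf4a, Foxa3, Cebpa, Cebpb and Onecut2, whereas for Foxa1 and Onecut1 the tumor and liver points overlap, and for Foxa2 and Prox1 part of the tumors reach the liver range. With library size as the only scaling, the mean difference for Hnf4a, Prox1 and Foxa2 does not pass the test as a fall in any tumor group. Nor does that for Foxa3 in Aldafermin+MYC tumors or for Cebpb in sgTrp53+MYC tumors.

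Hnf4a, a nuclear receptor that controls much of the liver's metabolic program, was the most abundant of the 9. It lies on chromosome 2 from 163348728 to 163414830 on the plus strand of GRCm39, as do all gene positions here. Livers held 1105, 1088, 1042, 1052 and 1067 CPM. The Aldafermin+MYC tumors held 519.7, 552, 381, 530.5 and 367 CPM, the FGF19+MYC tumors 381, 488, 621, 618 and 519 CPM, and the sgTrp53+MYC tumors 268, 354, 478, 589.7 and 503 CPM. The livers were tightly grouped, and every tumor lay below them by a wide gap. The fall was 2.28-fold in Aldafermin+MYC tumors (log2 fold change -1.19 ± 0.20 SE, edgeR adjusted p = 2.73e-05), 2.04-fold in FGF19+MYC tumors (adjusted p = 0.000128) and 2.44-fold in sgTrp53+MYC tumors (adjusted p = 1.06e-05), and with library size as the only scaling it did not pass in any group (-0.34, -0.17 and -0.39, adjusted p = 0.176, 0.492 and 0.12). The antisense gene Hnf4aos overlaps Hnf4a in RefSeq and held 1233 reads over all libraries, against 425253 for Hnf4a. Whether strand was used in counting is not given in the sources used here, so reads of the 2 cannot be fully told apart.

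The ONECUT letters ATCAAT lie in 1 of the 2 listed promoters of Hnf4a and 1 of the 3 of Foxa2. The FOXA letters TGTTTAC lie in the only listed promoter of Foxa1. They are shown because these factors are known to bind one another's control regions. In RefSeq's GRCm38.p6 table, 12 promoters of 8 of the factors were matched, and Onecut2 was not among them. The 250 bases before each listed start were searched on both strands for 8 motifs. The C/EBP motif and both HNF4A motifs searched were found in none of the 12 promoters. ATCAAT was found in 6.72% and TGTTTAC in 3.17% of the 32851 promoters of the table. Whether the factors' promoters exceed these shares was not tested. The windows are written 5′ to 3′ on the gene's strand, with the match in capitals, where ATTGAT and GTAAACA are the motifs read from the other strand.
Hnf4a promoter, chr2:163506786-163506815, plus strand: gtgattagaagaATCAATaagataaccggg
Foxa2 promoter, chr2:148047165-148047194, minus strand: acaaggcccattATTGATtttttttctcct
Foxa1 promoter, chr12:57546235-57546264, minus strand: ttatactgctttGTAAACAaagtgagggcc
The Hnf4a match lies 59 to 54 bases before the first of its 2 listed starts, which a GGGCGG box follows at 44 to 39 bases. The second start of Hnf4a, at the promoter that RefSeq places from 163546905 to 163547154, held none of the 8 motifs. A match of letters describes the sequence and says nothing of binding in these samples. Counts per gene do not separate the transcripts of the 2 Hnf4a starts.

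The 3 Foxa genes did not move alike. Foxa3, the forkhead family member most restricted to endoderm and liver (chromosome 7, 18747209 to 18757471, minus strand), held 111, 65.9, 79.6, 132 and 76.5 CPM in livers. It held 32.1, 29.8, 40.3, 40.05 and 43.5 CPM in Aldafermin+MYC tumors and 21.1, 31.5, 33.4, 32.4 and 45.1 CPM in FGF19+MYC tumors. In sgTrp53+MYC tumors it held 27.7, 17.8, 34.6, 19.5 and 27.9 CPM. All 15 tumors were below all livers, although the livers themselves spread 2-fold. Foxa3 fell 2.51-fold, 2.84-fold and 3.65-fold in Aldafermin+MYC, FGF19+MYC and sgTrp53+MYC tumors (edgeR adjusted p = 3.43e-05, 8.24e-06 and 5.81e-07), and with library size as the only scaling the falls were -0.48 (not past the threshold, adjusted p = 0.0798), -0.65 (adjusted p = 0.0215) and -0.98 (adjusted p = 0.00133) on the log2 scale.

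Foxa2, which acts in bile acid and glucose control (chromosome 2, 147884797 to 147889005, minus strand), held 36.9, 37.9, 35.3, 31.7 and 27.5 CPM in livers. The Aldafermin+MYC tumors held 29.8, 20.9, 17.3, 21.4 and 14.1 CPM, the FGF19+MYC tumors 27.5, 28.7, 29.8, 25.1 and 27.1 CPM, and the sgTrp53+MYC tumors 16.1, 21.8, 28.5, 26.8 and 24.0 CPM. Of 15 tumors, 11 were below the lowest liver. With TMM it fell 1.64-fold in Aldafermin+MYC tumors (edgeR adjusted p = 0.00142) and 1.44-fold in sgTrp53+MYC tumors (adjusted p = 0.0114), but the sign turned in all 3 groups with library size as the only scaling (0.14, 0.55 and 0.37, of which the FGF19+MYC value passed with adjusted p = 0.0212). In FGF19+MYC tumors the TMM log2 fold change was -0.29 ± 0.18 (SE, adjusted p = 0.142). The change of scaling moves the genes of a comparison by about the same amount. The place of Foxa2 relative to the median gene is therefore much the same under both, and is no second piece of support.

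Foxa1, the other early pioneer factor (chromosome 12, 57587414 to 57593702, minus strand), passed the test in no comparison with TMM. Livers held 27.4, 21.6, 22.9, 14.1 and 19.2 CPM, and Aldafermin+MYC tumors 15.04, 23.0, 12.8, 17.4 and 11.1 CPM. The FGF19+MYC tumors held 19.3, 28.6, 27.1, 24.2 and 21.5 CPM, and the sgTrp53+MYC tumors 12.8, 21.1, 27.6, 26.6 and 19.4 CPM. Every group of tumors overlapped the livers. The log2 fold changes were -0.41 ± 0.23, 0.20 ± 0.22 and 0.03 ± 0.22 (SE, edgeR adjusted p = 0.112, 0.439 and 0.907), with library size as the only scaling 0.44, 1.05 and 0.93, of which the last 2 passed (adjusted p = 0.00135 and 0.0033) and lay near the shift of the median gene. Leaving out either Aldafermin+MYC replicate 2 or liver replicate 4 made Foxa1 pass as lower in Aldafermin+MYC tumors. The gene Ttc6 overlaps Foxa1 in RefSeq and held 634 reads over all libraries, against 16142 for Foxa1.

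The C/EBP factors are leucine zipper proteins, and both were lower in all 3 tumor groups with TMM. Cebpa, which restrains hepatocyte proliferation and drives gluconeogenic and urea cycle genes (chromosome 7, 34818718 to 34821353, plus strand), held 528, 642, 493, 492 and 426 CPM in livers. The Aldafermin+MYC tumors held 89.4, 129, 89.3, 144 and 70.7 CPM, the FGF19+MYC tumors 95.7, 108, 145, 102 and 132 CPM, and the sgTrp53+MYC tumors 109.6, 115, 197, 132 and 151 CPM. The highest tumor, sgTrp53+MYC replicate 3, was still far below the lowest liver. Cebpa fell 4.94-fold, 4.43-fold and 3.67-fold in Aldafermin+MYC, FGF19+MYC and sgTrp53+MYC tumors (edgeR adjusted p = 1.22e-08, 3.07e-08 and 1.64e-07), and with library size as the only scaling it still fell in all 3 (log2 fold change -1.44, -1.30 and -0.97, adjusted p = 1.84e-05, 6.23e-05 and 0.00099).

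Cebpb, the family member linked to the acute phase response and regeneration (chromosome 2, 167530835 to 167532338, plus strand), held 48.0, 47.9, 36.9, 119.7 and 62.6 CPM in livers. It held 17.6, 12.8, 18.8, 18.9 and 22.3 CPM in Aldafermin+MYC tumors and 15.3, 16.4, 21.6, 13.2 and 26.0 CPM in FGF19+MYC tumors. In sgTrp53+MYC tumors it held 19.3, 26.2, 28.7, 25.2 and 30.2 CPM. Liver replicate 4 stood above the other livers, and no tumor reached the lowest liver. Cebpb fell 3.48-fold, 3.404-fold and 2.43-fold in Aldafermin+MYC, FGF19+MYC and sgTrp53+MYC tumors (edgeR adjusted p = 8.19e-06, 1.03e-05 and 0.000277), and with library size as the only scaling the falls of -0.95 and -0.91 passed (adjusted p = 0.00387 and 0.0054) while the sgTrp53+MYC value of -0.37 did not (adjusted p = 0.214).

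The 2 Onecut genes, cut-homeodomain factors that act in hepatocyte and bile duct development, differed most from each other. Onecut2 (chromosome 18, 64473091 to 64534058, plus strand) held 94.7, 91.3, 105, 54.1 and 85.2 CPM in livers. It held 2.45, 0.892, 2.48, 5.57 and 4.76 CPM in Aldafermin+MYC tumors, 0.223, 3.13, 6.09, 7.24 and 13.3 CPM in FGF19+MYC tumors, and 2.86, 9.51, 1.79, 0.775 and 0.352 CPM in sgTrp53+MYC tumors. The lowest liver stood well above the highest tumor, FGF19+MYC replicate 5, whereas the tumors of 1 group spread over a wide range. FGF19+MYC replicate 1 rested on 4 reads. Onecut2 fell 26.8-fold in Aldafermin+MYC tumors (log2 fold change -4.75 ± 0.85 SE, edgeR adjusted p = 5.78e-05), 14.3-fold in FGF19+MYC tumors (-3.83 ± 0.81, adjusted p = 0.00033) and 28.1-fold in sgTrp53+MYC tumors (-4.81 ± 0.84, adjusted p = 4.71e-05). Without sgTrp53+MYC replicate 2 the mean of that group was 1.44 CPM in place of 3.06 CPM and the log2 fold change -5.90 (edgeR adjusted p = 6.35e-06). With library size as the only scaling it fell in all 3 (-3.91, -2.96 and -3.96).

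In 2 of the tumors with the most Onecut2, markers of liver epithelium moved with it. FGF19+MYC replicate 5 had the highest summed hepatocyte markers of all tumors (28380 CPM). sgTrp53+MYC replicate 2 had 793.5 CPM of the 7 cholangiocyte (bile duct) markers, whereas the other 14 tumors had at most 104.9 CPM and livers 71.1 to 160.5 CPM. There Krt19 was at 191 CPM against at most 2.33 CPM in the other 4 sgTrp53+MYC tumors, Krt7 at 80.8 against 0.265 CPM and Spp1 at 466 against 38.6 CPM, while Cftr at 0.0699 CPM lay within the range of the others. The part of these cells in the Onecut2 level was not tested. Without sgTrp53+MYC replicate 2, 7 factors passed against liver as before.

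Onecut1 (chromosome 9, 74769118 to 74800594, plus strand) held 11.3, 7.72, 19.9, 2.93 and 6.21 CPM in livers. The Aldafermin+MYC tumors held 5.07, 9.81, 7.94, 8.72 and 1.88 CPM, the FGF19+MYC tumors 5.79, 12.0, 8.92, 6.74 and 5.33 CPM, and the sgTrp53+MYC tumors 7.14, 4.89, 15.4, 15.2 and 16.4 CPM. The livers alone covered most of the range of the tumors, and 1 of 15 tumors was below the lowest liver. None of the log2 fold changes passed the test (-0.53, -0.31 and 0.29, each ± 0.47 SE, edgeR adjusted p = 0.326, 0.568 and 0.589), and with library size as the only scaling the first 2 turned to 0.32 and 0.52 and the last, 1.17, passed (adjusted p = 0.0421).

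Prox1, a homeobox factor of hepatoblasts, hepatocytes and lymphatic endothelium (chromosome 1, 189850232 to 189904637, minus strand), held 197, 195, 179.5, 83.0 and 117 CPM in livers. The Aldafermin+MYC tumors held 83.2, 67.5, 53.9, 76.8 and 39.5 CPM, the FGF19+MYC tumors 47.6, 48.5, 72.9, 79.4 and 61.5 CPM, and the sgTrp53+MYC tumors 28.3, 42.8, 114, 112 and 76.0 CPM. Liver replicate 4 had the lowest Prox1, Onecut1, Onecut2 and Foxa1 of the livers and the highest Cebpb and Foxa3. Of 15 tumors, 12 were below it. Prox1 fell 2.40-fold, 2.49-fold and 2.07-fold with TMM (edgeR adjusted p = 0.00251, 0.0019 and 0.00931), and passed in no group with library size as the only scaling (-0.41, -0.47 and -0.13). Markers of lymphatic endothelium, 4 genes besides Prox1, summed to 30.2 to 51.7 CPM in livers and 3.22 to 21.0 CPM in tumors, and their part in the fall was not tested. The antisense gene Prox1os held 2987 reads over all libraries, against 64079 for Prox1.

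**Figure D2:**
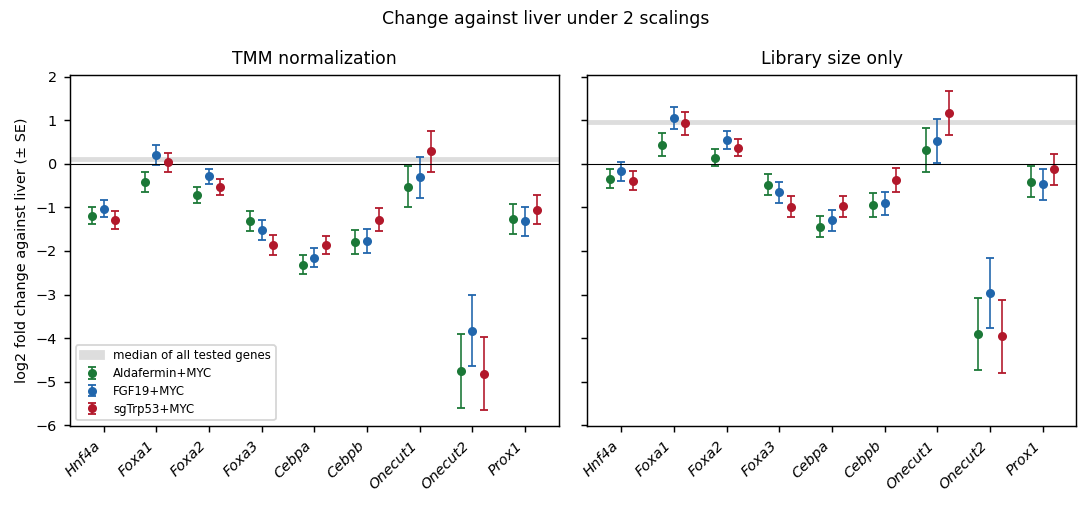
Log2 fold change against liver (vertical axis, ± SE) of the 9 factors in the 3 tumor groups, with TMM scaling (left) and with library size as the only scaling (right). The grey band is the range over the 3 comparisons of the median over all tested genes, 0.06 to 0.13 on the left and 0.91 to 0.97 on the right. Cebpa and Onecut2 lie below 0 in both panels, Hnf4a and Prox1 come close to 0 on the right, and Foxa2 changes sign.

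A rank within a library needs no scaling between libraries. Each factor was therefore also placed among the 14333 tested genes by its percentile. For 4 factors every tumor had a lower percentile than every liver, as did 21.1% of all tested genes (with CPM, 5 factors and 21.9%). Onecut2 went from a percentile of 83.1 ± 4.04 (SD, n = 5) in livers to 20.2 ± 7.80, 26.5 ± 15.03 and 17.3 ± 12.2 in Aldafermin+MYC, FGF19+MYC and sgTrp53+MYC tumors. Cebpb went from 75.8 ± 7.96 to 48.9 ± 4.83, 49.4 ± 5.68 and 57.1 ± 3.21. Foxa3 went from 83.9 ± 4.33 to between 56.3 and 66.5, and Cebpa from 97.2 ± 0.428 to between 87.4 and 91.7.

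Hnf4a was among the most abundant genes of every library: its percentile was 98.8 ± 0.0648 in livers and 98.1 to 98.5 in the tumor groups, and the highest FGF19+MYC tumor, at 98.97, was above all livers. Foxa1 stayed between group means of 45.8 and 55.5, and Onecut1 between 29.96 and 39.5. Foxa2 was at 64.9 ± 3.13 in livers and 51.5 to 59.0 in tumors, and Prox1 at 89.6 ± 4.02 and 78.2 to 78.8, with overlap in both.

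**Figure D3:**
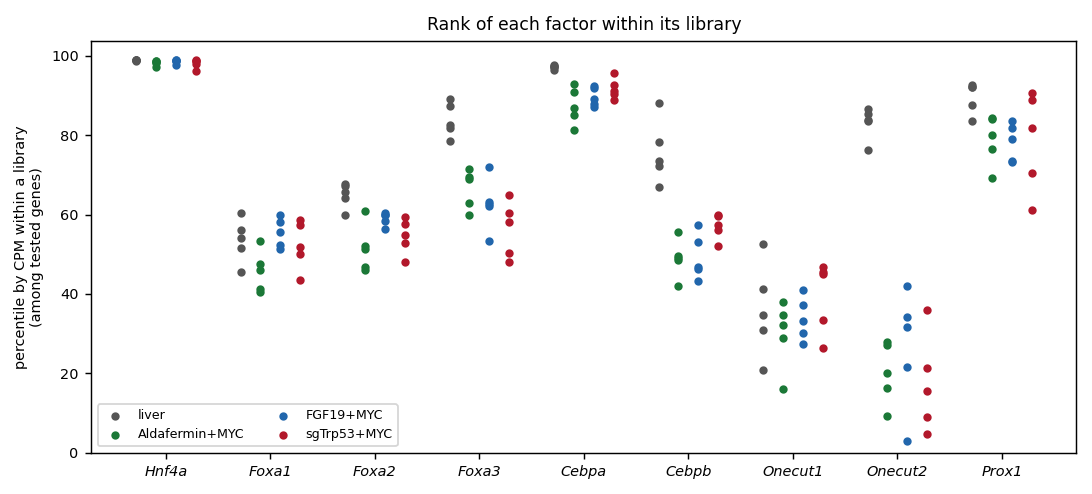
Percentile by CPM of each factor among the 14333 tested genes of its own library (vertical axis), with 1 point per library and colors for the 4 groups. Onecut2 moves from the upper part of the liver libraries (76.2 to 86.6) to the lower part of the tumor libraries (2.98 to 42.1), while Hnf4a is at 96.2 or higher in all libraries.

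Per kilobase of exon, Hnf4a and Cebpa were nearly level in livers, at 213 ± 5.11 and 196 ± 30.2 CPM per kb (SD, n = 5), and overlapped. In Aldafermin+MYC and FGF19+MYC tumors they separated, with Hnf4a at 93.3 ± 17.6 and 104 ± 19.8 and Cebpa at 39.6 ± 11.6 and 44.2 ± 7.94 CPM per kb. In sgTrp53+MYC tumors, at 87.1 ± 25.3 and 53.4 ± 13.4, Hnf4a was above Cebpa in 5 of 5 libraries although the ranges overlapped. Foxa3 and Cebpb came next in every group and overlapped each other. Prox1, Foxa2 and Foxa1 followed, in livers at 17.2, 9.97 and 6.25 CPM per kb, where each overlapped its neighbor. The order changed at the end: Onecut1 was the lowest in livers (1.66 ± 1.12, against 5.31 ± 1.19 for Onecut2), and Onecut2 in all 3 tumor groups (0.188 to 0.369 CPM per kb, against 1.15 to 2.03 for Onecut1).

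The Aldafermin+MYC and FGF19+MYC tumors allow the engineered analog to be set beside the hormone, each expressed with MYC. No factor passed the test, as was the case for all 14333 genes (0%), of which 1048 (7.31%) had an unadjusted p under 0.05. DESeq2 called 96 genes and the edgeR likelihood ratio test 59, none of them among the 9 factors. Foxa1 was 1.52-fold lower in Aldafermin+MYC tumors (log2 fold change -0.61 ± 0.23 SE, interval of 2 SE either side -1.06 to -0.16, edgeR adjusted p = 0.488) and Foxa2 1.33-fold lower (-0.42 ± 0.18, adjusted p = 0.591), both under 0.05 before adjustment. The intervals were -0.55 to 0.23 for Hnf4a, -0.56 to 0.25 for Cebpa, -0.26 to 0.63 for Foxa3, -0.56 to 0.49 for Cebpb and -0.61 to 0.71 for Prox1. They were wide for Onecut1 (-1.16 to 0.73) and Onecut2 (-2.41 to 0.59), and a 2-fold difference in either gene lies within them.

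The Aldafermin+MYC and FGF19+MYC tumors, averaged and called FGF19-type here, did not differ past the threshold from sgTrp53+MYC tumors in any of the 9 factors, where 23.7% of all genes did (36.2% before adjustment). Before adjustment 2 factors were under 0.05: Cebpb, 1.42-fold lower (log2 fold change -0.50 ± 0.22 SE, edgeR adjusted p = 0.11), and Foxa3, 1.37-fold higher (0.45 ± 0.20, adjusted p = 0.102). With the livers left out of the model, Cebpb passed (-0.53, adjusted p = 0.0385). Onecut1 was at 7.22 CPM in both groups together and 11.8 CPM in sgTrp53+MYC tumors (-0.71 ± 0.40, adjusted p = 0.203). The interval for Hnf4a was -0.16 to 0.52 and for Cebpa -0.70 to -0.01.

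Ratios of related factors within a library are also free of the scaling. There were 4 ratios, each compared in 5 ways, 20 tests in all, by exact two-sided permutation tests with Benjamini-Hochberg adjustment. With 5 against 5 libraries the 252 splits allow no p below 0.00794. Onecut2 to Onecut1 had a log2 ratio of 3.398 ± 0.69 (SD, n = 5) in livers, where Onecut2 reads were the more numerous, and of -1.09 ± 1.73, -1.12 ± 2.24 and -2.65 ± 2.54 in Aldafermin+MYC, FGF19+MYC and sgTrp53+MYC tumors (exact permutation p = 0.00794 and adjusted p = 0.0265 for each). No tumor library overlapped the livers in this ratio.

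Within the Foxa family, Foxa3 lost ground to Foxa2 in FGF19+MYC and sgTrp53+MYC tumors, with log2 ratios of 0.20 ± 0.41 and 0.11 ± 0.49 (SD, n = 5) against 1.42 ± 0.47 in livers (exact permutation p = 0.00794, adjusted p = 0.0265 for each). In Aldafermin+MYC tumors the ratio was 0.87 ± 0.59, which did not pass (adjusted p = 0.271). Foxa1 gained on Foxa2, from -0.71 ± 0.29 in livers to -0.21 ± 0.21 in FGF19+MYC tumors (exact permutation p = 0.0159, adjusted p = 0.0454) and -0.15 ± 0.16 in sgTrp53+MYC tumors (p = 0.00794, adjusted p = 0.0265), while the value of -0.39 ± 0.40 in Aldafermin+MYC tumors did not pass. Whether the Aldafermin+MYC tumors differed from the other tumors was tested only against FGF19+MYC tumors and for both groups together, and neither Foxa ratio passed. Cebpb to Cebpa, from -3.15 ± 0.74 in livers to between -2.68 and -2.42 in tumors, did not pass either. In all, 7 of the 20 passed, whereas without liver replicate 2, 3 or 5 none did (smallest adjusted p = 0.0529 by the exact permutation test) and without liver replicate 4, 8 did. With so few splits p moves only in coarse steps. The 7 differences kept their sign in all 20 fits with 1 library left out. For Onecut2 to Onecut1 against liver they ranged from -5.10 to -3.90, -5.13 to -3.66 and -6.95 to -5.33 in Aldafermin+MYC, FGF19+MYC and sgTrp53+MYC tumors.

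**Figure D4:**
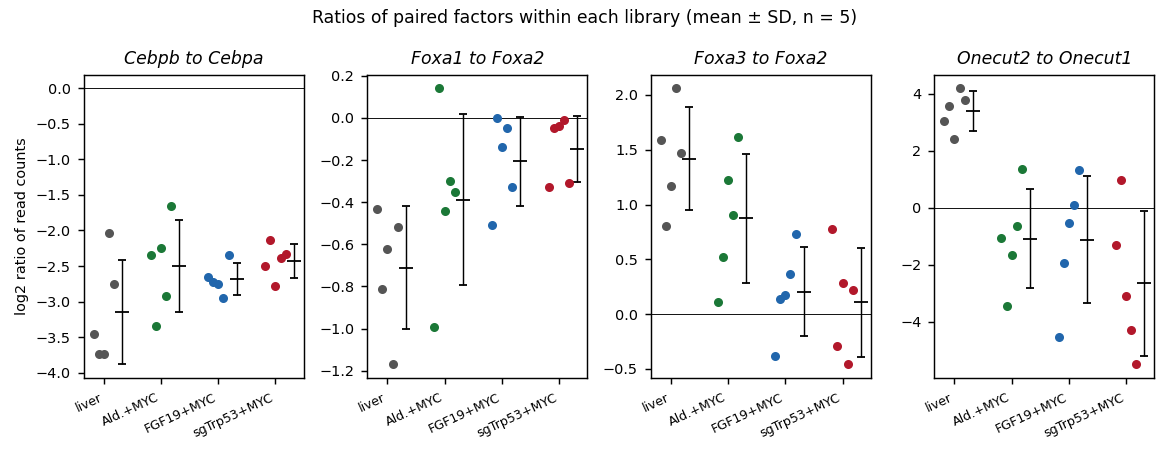
Log2 ratio of read counts of paired factors in each library, with 1 panel per ratio, points for libraries and black marks for the mean ± SD (n = 5). Onecut2 reads exceed Onecut1 reads in every liver (2.40 to 4.19), whereas the tumor ratios range from -5.51 to 1.34.

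Genes that these factors are known to act on were lower in tumors by a larger median than the factors. Of 27 hepatocyte target genes, 26, 26 and 25 fell in Aldafermin+MYC, FGF19+MYC and sgTrp53+MYC tumors, with median log2 fold changes of -3.38, -3.00 and -3.23 (24, 25 and 23 fell with library size as the only scaling, medians -2.52, -2.16 and -2.39). Among all genes, 31.9%, 32.9% and 33% fell with TMM, and 16.8%, 17.1% and 16.9% with library size as the only scaling. Tat, which breaks down tyrosine, and Pck1, the rate-limiting enzyme of gluconeogenesis, had the lowest mean log2 fold change over the 3 groups. Tat fell from 2461 CPM in livers to 46.8, 105 and 20.02 CPM in Aldafermin+MYC, FGF19+MYC and sgTrp53+MYC tumors (edgeR adjusted p = 0.000634, 0.00275 and 0.000166), and Pck1 from 5516 to 141, 264 and 33.6 CPM (adjusted p = 0.000738, 0.00252 and 7.19e-05). One library carried much of each tumor mean: without Aldafermin+MYC replicate 4, FGF19+MYC replicate 5 and sgTrp53+MYC replicate 1, the means were 12.5, 43.1 and 9.999 CPM for Tat and 81.2, 95.2 and 18.1 CPM for Pck1. The falls then passed with log2 values of -7.62, -5.83 and -7.94 for Tat and -6.08, -5.86 and -8.25 for Pck1. For Pck1 in Aldafermin+MYC tumors another library still stood at 272 CPM, where the median of the whole group was 29.8 CPM.

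Cyp7a1, the rate-limiting enzyme of bile acid synthesis and a target of HNF4A that FGF19 signaling represses, was at 292.5 CPM in livers and 5.79 and 1.13 CPM in Aldafermin+MYC and FGF19+MYC tumors (edgeR adjusted p = 0.00243 and 0.000355). Aldafermin+MYC replicate 4 set the first mean, with 28.8 CPM where the other 4 libraries had at most 0.173 CPM and a mean of 0.0494 CPM, and FGF19+MYC replicate 5, at 3.30 CPM, raised the second, which was 0.588 CPM without it. The falls were larger without these libraries (log2 fold change -12.39 and -8.93). In sgTrp53+MYC tumors Cyp7a1 was at 53.6 CPM, 5.46-fold lower than in livers, which did not pass (edgeR adjusted p = 0.0981). These tumors, at 4.53 to 92.5 CPM, nonetheless all lay below the lowest liver, at 116.7 CPM. The FGF19-type tumors were lower than the sgTrp53+MYC tumors (log2 fold change -4.39 ± 1.09 SE, edgeR adjusted p = 0.00715, and -7.74 without Aldafermin+MYC replicate 4). Igfbp1, which encodes a secreted binding protein of insulin-like growth factors and is driven by FOXA factors, was the list's only gene that rose: from 169 CPM to 639 CPM in Aldafermin+MYC tumors (log2 fold change 1.92 ± 0.56, adjusted p = 0.0048) and 772 CPM in FGF19+MYC tumors (2.20 ± 0.56, adjusted p = 0.00191). It was at 235 CPM in sgTrp53+MYC tumors (0.48 ± 0.54, adjusted p = 0.442, but 1.38 and adjusted p = 0.0236 with library size as the only scaling). Of the 27 targets, 5 were higher and 3 lower in the FGF19-type tumors than in sgTrp53+MYC tumors, with Igfbp1 among the former (edgeR adjusted p = 0.0289), where 11.6% and 12.1% of all genes were. With 1 library left out, 3 to 7 were higher and 2 to 4 lower, the 3 without sgTrp53+MYC replicate 2 or 5, and Igfbp1 no longer passed without sgTrp53+MYC replicate 1, 2, 3 or 5 (adjusted p = 0.0625 to 0.0801), while without sgTrp53+MYC replicate 4 its log2 fold change was 2.29.

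Partner factors outside the 9 also held genes that fell and genes that passed in no direction. Of 13, 10 fell in each tumor group, with medians of -1.64, -1.72 and -1.49 (9, 8 and 7 with library size as the only scaling, under which 2, 2 and 3 rose). Of all genes, 31.9%, 32.9% and 33% fell with TMM, and with library size as the only scaling 16.8%, 17.1% and 16.9% fell and 60.1%, 58.4% and 59.5% rose. Tbx3, a T-box factor of hepatoblasts and of hepatocytes around the central vein, was at 51.3 CPM in livers and 1.01, 3.66 and 3.34 CPM in the 3 tumor groups (edgeR adjusted p = 5.60e-05, 0.00115 and 0.000818). Without Aldafermin+MYC replicate 4 its mean there was 0.29 CPM and the log2 fold change -7.47. Zbtb20, a zinc finger repressor of Afp, fell from 57.0 to 4.48, 6.62 and 7.53 CPM (adjusted p = 9.75e-08, 6.86e-07 and 1.20e-06), and Ppara, the fatty acid sensor, from 553 to 55.1, 60.1 and 87.6 CPM (adjusted p = 9.43e-08, 1.50e-07 and 1.24e-06). All 3 kept this direction with library size as the only scaling.

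Gata4, a zinc finger factor of early liver that was named after its values were seen, passed in no tumor group with TMM (log2 fold change 0.15, 0.21 and -0.06, edgeR adjusted p = 0.584, 0.447 and 0.822), whereas with library size as the only scaling it was higher in all 3 (1.01, 1.07 and 0.84). Nr1h4, the bile acid receptor FXR, fell from 164 to 31.9, 34.3 and 61.8 CPM and was lower in the FGF19-type than in sgTrp53+MYC tumors (log2 fold change -0.90 ± 0.16 SE, edgeR adjusted p = 0.000616). Nr5a2, a nuclear receptor that acts on Cyp7a1, and Hhex, a homeobox factor of early liver, were also lower there (-0.50, adjusted p = 0.00914, and -0.63, adjusted p = 0.00627), and Creb3l3, a fasting-induced factor, was higher (0.68, adjusted p = 0.0199), which was lost without sgTrp53+MYC replicate 2 (adjusted p = 0.0589).

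Among relatives of the 9 from the same families, 5 of 7 were tested, and 3, 4 and 5 of them fell in Aldafermin+MYC, FGF19+MYC and sgTrp53+MYC tumors (2, 2 and 1 with library size as the only scaling), beside 31.9%, 32.9% and 33% of all genes (16.8%, 17.1% and 16.9%). Cebpe, best known from granulocytes, was at 7.77 ± 1.59 CPM (SD, n = 5) in livers and 0.382, 0.242 and 0.377 CPM in tumors, a fall with both scalings (edgeR adjusted p = 5.54e-05, 2.25e-05 and 4.61e-05 with TMM). Without FGF19+MYC replicate 5 the log2 fold change of Cebpe in that group was -5.67 in place of -4.98. The summed neutrophil markers were at 3.14 to 5.13 CPM in livers, where Ly6g had at most 3 reads in any library, and 2.47 to 24.7 CPM in tumors. The part of these cells in the Cebpe level was not tested. Prox2 fell from 4.20 to 0.761, 0.669 and 1.29 CPM (adjusted p = 1.62e-05, 8.70e-06 and 0.000511), although in sgTrp53+MYC tumors this was lost with library size as the only scaling (adjusted p = 0.0515). Cebpd, Cebpg and Ddit3 fell in part of the groups or in all 3 with TMM, by log2 values between -1.54 and -0.69 where they passed, and in none with library size as the only scaling. Without liver replicate 4, Cebpd no longer passed in FGF19+MYC or sgTrp53+MYC tumors (edgeR adjusted p = 0.0934 and 0.0536). Cebpg and Ddit3, a stress-induced C/EBP relative, were higher in the FGF19-type than in sgTrp53+MYC tumors (0.39, edgeR adjusted p = 0.0496, and 0.89, adjusted p = 0.0262). The call of Cebpg was lost in most of the fits with 1 library left out (adjusted p up to 0.128), and that of Ddit3 without sgTrp53+MYC replicate 1, 3, 4 or 5 (up to 0.0785).

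**Figure D5:**
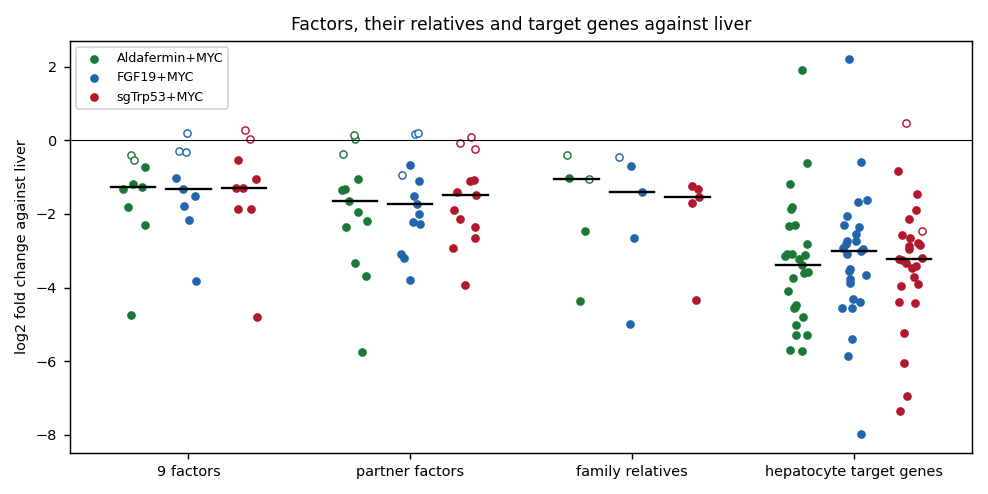
Log2 fold change against liver with TMM scaling (vertical axis) of the 9 factors, 13 partner factors, 5 family relatives and 27 hepatocyte target genes. Each point is a gene in 1 tumor group, filled where it passed the adjusted p threshold of 0.05, and black lines are medians. The medians of the target genes (-3.38, -3.00 and -3.23) lie below those of the 9 factors (-1.27, -1.32 and -1.28), and 1 target, Igfbp1, lies above 0 in all 3 groups. With library size as the only scaling the median of all tested genes lies higher by 0.84 to 0.88.

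For each factor the 3 genes with the most similar course over the 20 libraries were sought, by the root mean square difference of centered log2 CPM over 13099 genes. This is a description of shape, in which the difference between liver and tumors has the largest share. Nearest to Hnf4a were Zdhhc9, Pde4dip and Ncoa4, at 0.17, where the median gene was at 0.87. Cebpa had Npc1 (0.22), Ube2h (0.23) and Pygl (0.24), and Foxa3 had Slc40a1 (0.31), Ftl1 and Cpn1 (0.32 each). Foxa1 had Lrig1, Gprasp1 and Ptch1 (0.21 each), and Foxa2 had Fbxo21 (0.20), Nr2f2 and Repin1 (0.21 each). Prox1 had Dapk1 (0.28), Zyg11b and Kat6b (0.30 each), and Cebpb had Aldh4a1 (0.36), Cisd1 and Cltb (0.38 each). Onecut1 had Tmem245 and Kat6a (0.49 each) and Zfhx3 (0.50), where the median gene was at 1.07. Onecut2 had Mfsd2a (0.89), Ceacam1 (0.90) and Suox (0.92), where the median gene was at 2.65.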

How the data were processed

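RNA was extracted and stranded mRNA libraries were made by the authors, whose processing notes name bcl2fastq 2.20.0.422, HISAT2 and the mm39 build, with counting by htseq-count on RefSeq genes per the methods. The authors deposited raw counts per gene symbol, whole numbers, in 2 tables, 1 of them with only the sgTrp53+MYC libraries. All columns were used (0 left out). The 5 summary lines of htseq-count were removed, and the test was run on the 14333 of 50559 genes that reached 1 CPM in 5 or more libraries.

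A single quasi-likelihood model of the 4 groups was fitted in edgeR 4.0.16 (R 4.3.3) after TMM scaling, with p-values adjusted by the Benjamini-Hochberg method over all tested genes (threshold 0.05). Ratios used counts plus 0.5 and exact permutation tests. Similar courses used log2 CPM with a prior count of 2. The mice are separate animals. Pairs of libraries of a group differed beyond sampling noise (chi-square over degrees of freedom at least 15.0). Replicate numbers do not pair mice. The script was tested on simulated counts. The 9 factors, the gene lists and the tests were chosen with earlier results of these data known. Among listed genes, those named had the largest mean change of their list, were the only ones to move against it, or differed between tumors; Gata4 was named after its values were seen. Single values of some list members are not reported here. Gene positions and exon lengths are from GENCODE M39 on GRCm39, and promoters from RefSeq's GRCm38.p6 table. Alternatives were DESeq2 1.42.0, other scalings, filters and model samples, a replicate block, and each library left out.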

Additional observations from a re-analysis of the deposited data

Results flagged for a closer look

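The Onecut2 level of sgTrp53+MYC replicate 2, 9.51 CPM, stood apart from the other 4 sgTrp53+MYC tumors (0.352 to 2.86 CPM), as the only 1 of 52 sets of 5 values examined in which an end value lay far enough from its neighbors by Dixon's test (gap over range 0.726, critical value 0.71). Chance gives about 1 such set in 20, so that 1 among 52 is no more than chance would give. It is the library with 793.5 CPM of summed cholangiocyte markers; the part of these cells was not tested.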

How the results depend on the processing

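With library size as the only scaling, 3 of the 9 factors passed in Aldafermin+MYC tumors against liver in place of 7, all of them lower. In FGF19+MYC tumors 4 passed as lower and 2 as higher, in place of 6 lower. In sgTrp53+MYC tumors 3 passed as lower and 2 as higher, in place of 7 lower. Family relatives that passed under this scaling numbered 2 in FGF19+MYC and 1 in sgTrp53+MYC tumors against liver (in place of 4 and 5). Between FGF19-type and sgTrp53+MYC tumors they numbered 1 (in place of 2). Signs turned there for Foxa1 (0.44), Foxa2 (0.14) and Onecut1 (0.32) in Aldafermin+MYC tumors, Foxa2 (0.55) and Onecut1 (0.52) in FGF19+MYC tumors, Foxa2 in sgTrp53+MYC tumors (0.37) and Foxa2 between tumors (-0.02). The scaling alone differs, and which of them holds for RNA per cell cannot be told from these libraries. Foxa1 in sgTrp53+MYC tumors turned to -0.01 with DESeq2 and with its size factors. Foxa2 between the FGF19-type and sgTrp53+MYC tumors turned to -0.08 without a filter, -0.01 with only the compared groups in the model and -0.18 with Aldafermin+MYC tumors alone, and Foxa1 to 0.17 with FGF19+MYC tumors alone. With 2 added to counts, the Onecut2 to Onecut1 ratio between Aldafermin+MYC and FGF19+MYC tumors turned to -0.04. The causes were not tested. With only the compared groups in the model, 1 factor, Cebpb, passed between tumors. With each library left out in turn, 7 to 8, 6 and 7 factors passed in Aldafermin+MYC, FGF19+MYC and sgTrp53+MYC tumors against liver, 0 between tumors, and 0 to 8 ratios. Values that did not pass crossed 0 in these fits: between Aldafermin+MYC and FGF19+MYC tumors Cebpb (-0.13 to 0.12), Onecut1 (-0.39 to 0.00), Prox1 (-0.06 to 0.17), Cebpb to Cebpa (-0.03 to 0.39) and Onecut2 to Onecut1 (-0.83 to 0.63), Foxa2 against sgTrp53+MYC tumors (-0.08 to 0.11), Onecut1 in FGF19+MYC tumors (-0.55 to 0.13) and Foxa1 in sgTrp53+MYC tumors against liver (-0.09 to 0.17). With the replicate number as a block the counts were 7, 6, 7, 0 and 0 as without it. Same-numbered libraries of different groups did not deviate together (mean correlation -0.019 over 30 pairs, 0.008 over 120 other pairs), so that the numbers pair no mice. Depth limits Onecut2 in FGF19+MYC replicate 1, with 4 reads.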
